A study of Mus musculus with 6 samples.

Results

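The genes described here are the p53 family (Trp53, Trp63 and Trp73), the p53 regulators Mdm2 and Mdm4, and 5 genes that p53 is known to activate directly (Ccng1, Bbc3, Plk2, Sesn2 and Phlda3). They were found by gene symbol, and all 10 were present among the 53465 genes of the deposited table of expected counts. Polyadenylated RNA was sequenced from 4T1, a mouse mammary carcinoma line. The resistant cells were taken from lesions found after surgery in animals dosed with axitinib (a VEGF receptor kinase inhibitor, 100 mg/kg/day). In culture, the medium held 0.5 µM of the drug. They were sorted by C12FDG, which fluoresces once β-galactosidase cleaves it. The SM positive fraction (high signal) and the SM negative fraction (low signal) each have 3 libraries. Both fractions are resistant to axitinib and were grown with it, so neither is an untreated or drug-sensitive control.

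p53 is a transcription factor that is stabilised by DNA damage and other stresses and then activates genes for cell cycle arrest, cell death and repair. MDM2 binds p53 and marks it for degradation, MDM4 binds and restrains it, and Mdm2 is itself a p53 target, which closes a feedback loop. The relatives p63 and p73 bind similar DNA sites, and p63 is best known in basal epithelial cells. p53 and its targets are widely used markers of senescence, the state that high β-galactosidase activity is commonly taken to mark. The 4T1 line is commonly described as lacking functional p53, and transcript counts cannot show whether a protein is made.

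Trp53 and the kinase gene Plk2 were lower in SM positive cells, the cyclin G1 gene Ccng1 was slightly higher, and Mdm2, Mdm4, Bbc3, Sesn2 and Phlda3 did not pass the test. Trp63 was near the detection limit and Trp73 had no count. Of the 10 genes, 9 passed the filter on low counts and were tested. Higher in SM positive was 1 of the 9 (11.1%), and lower were 2 (22.2%). Over all 14038 genes tested by the same rule, 8.52% were higher and 5.6% lower (14.1% in either direction). With 9 genes, these shares do not set the group apart. The fit compared libraries with the same replicate number (the replicate number as a block). Without that block, Trp53 was the 1 gene of the 9 that passed, against 1.14% of all genes higher and 0.214% lower (1.35% in either direction).

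**Figure D1:**
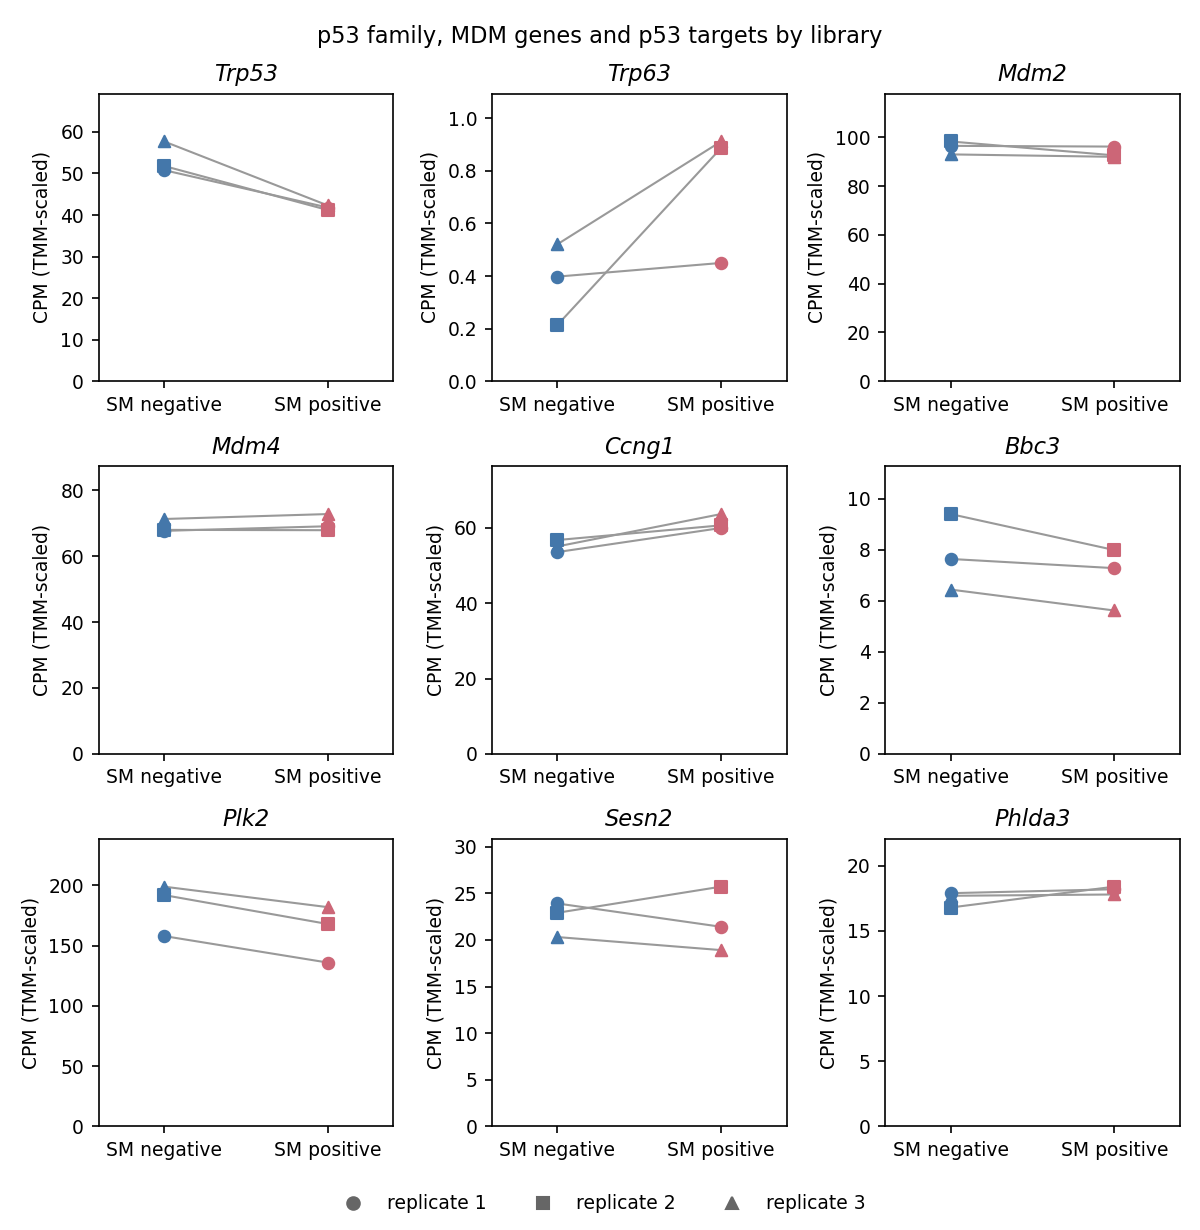
Expression of the 9 genes with counts in each library, in CPM (counts scaled by TMM to a common library total), with each axis starting at 0. Points are libraries, shapes are replicate numbers and lines join libraries with the same number. Trp53 falls along all 3 lines and its fractions do not overlap, whereas Plk2 falls along all 3 lines although its fractions overlap.

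Trp53 stood at 50.8, 51.8 and 57.7 CPM in SM negative replicates 1, 2 and 3, and at 41.8, 41.2 and 42.3 CPM in SM positive replicates 1, 2 and 3. Every SM positive library was below every SM negative library, as for 9.47% of all genes tested, and the SM positive values lay close together. By pair, the SM positive level was 0.822, 0.796 and 0.733 of the SM negative level. The means were 53.4 ± 3.72 CPM in SM negative and 41.8 ± 0.531 CPM in SM positive cells (SD, n = 3). The fitted log2 change was -0.35 ± 0.0504 (SE; edgeR adjusted p = 6.99e-05 with the block and 0.0349 without it). In fits without the block, the call ended whichever of the 6 libraries was left out (adjusted p from 0.0677 to 0.148). In blocked fits it held with each pair left out, at adjusted p = 0.00616 or less.

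Trp53 (ENSMUSG00000059552.13) lies on chromosome 11, 69580359 to 69591873, plus strand (GRCm38, GENCODE). A processed copy, Trp53-ps, is the gene that most often shares its sequence, and 10.1% of the 31-base stretches of Trp53 transcripts also match elsewhere. Trp53-ps had 0 counts in all 6 libraries, as the authors' counting assigned the reads. Wrap53, a divergent neighbour that was named after its values were seen, starts close upstream of Trp53 and runs the other way. It stood at 12.0 ± 0.723 CPM in SM negative and 11.9 ± 0.742 CPM in SM positive cells (log2 change -0.01, adjusted p = 0.964), so no difference was detected for the gene on the other side. That region, between the annotated starts of both genes, is shown here 5′ to 3′ on the Trp53 strand. The capitals mark the 1 exact match to the consensus p53 half-site. An exact half-site occurs in 8.36% of all 32851 RefSeq promoter windows, which are described further on. The best pair of half-sites in the Trp53 window has 3 mismatches in 20 letters, and 45.1% of windows hold a pair at least as good.
Trp53 upstream, chr11:69580256-69580358: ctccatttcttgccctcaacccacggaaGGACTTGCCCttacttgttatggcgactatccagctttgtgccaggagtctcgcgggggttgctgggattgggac

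Trp63 had 10, 4 and 11 counts in SM negative replicates 1, 2 and 3, and 12, 19 and 18 counts in SM positive replicates 1, 2 and 3. These correspond to 0.378 ± 0.155 CPM in SM negative and 0.75 ± 0.26 CPM in SM positive cells (SD, n = 3), and the fractions overlap. The level was higher in SM positive cells in all 3 pairs, which held for 23.9% of all genes tested. The log2 change was 0.92 ± 0.404 (SE), with a 95% interval from 0.08 to 1.76, and it did not pass the test after adjustment (adjusted p = 0.142, and 0.368 without the block). At 4 to 19 counts per library the interval is wide, 1.05-fold to 3.39-fold, and the long and N-terminally shortened p63 forms cannot be separated in gene counts. Trp73, and the antisense gene Trp73os that overlaps its exons, had 0 counts in all libraries. In the same annotation Trp63 spans chromosome 16, 25683763 to 25892102, plus strand, and Trp73 chromosome 4, 154056253 to 154140208, minus strand. A count of 0 allows up to 0.113 to 0.16 CPM depending on the library, for counting error only.

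Mdm2, which encodes the ubiquitin ligase that targets p53, stood at 96.5, 98.3 and 93.0 CPM in SM negative replicates 1 to 3 and at 96.2, 92.6 and 92.0 CPM in SM positive replicates 1 to 3. Its level was 0.941 to 0.996 of the SM negative value across the 3 pairs. The log2 change was -0.04 ± 0.0421 (SE; adjusted p = 0.65), and its 95% interval, 0.918-fold to 1.04-fold, bounds the difference. Gene counts do not separate transcripts of the constitutive Mdm2 promoter from those of the p53-responsive promoter in its first intron. Mdm4 stood at 69 ± 2.01 CPM in SM negative and 69.9 ± 2.53 CPM in SM positive cells (log2 change 0.02 ± 0.0432 SE, adjusted p = 0.82), with an interval of 0.952-fold to 1.08-fold. Other genes share 13.6% of its 31-base stretches, most often the processed copy Mdm4-ps, which had 11 to 34 counts per library against 1273 to 1842 for Mdm4. Mdm2 lies on chromosome 10, 117688875 to 117710758, and Mdm4 on chromosome 1, 132959484 to 133030561, both on the minus strand.

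Since Trp53 fell and Mdm2 did not pass the test, the number of Mdm2 counts per Trp53 count differed between the fractions. It was 1.9, 1.9 and 1.61 in SM negative replicates 1 to 3 and 2.3, 2.24 and 2.18 in SM positive replicates 1 to 3. The fractions did not overlap (means 1.8 ± 0.17 and 2.24 ± 0.063, SD, n = 3). Trp53 alone did not overlap either, a pattern that 9.47% of all genes tested showed in its direction. With Mdm2 at 0.941 to 0.996 of the SM negative level by pair, the ratio mostly restates the Trp53 difference. This ratio was formed after the values of both genes were seen, and no test is given for it.

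**Figure D2:**
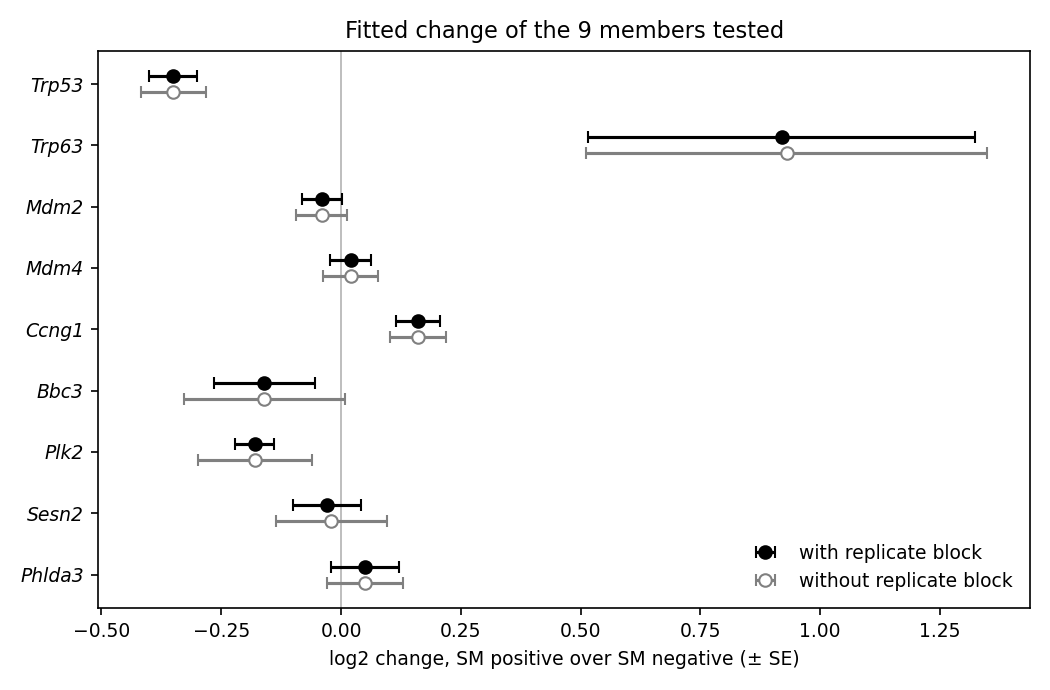
Fitted log2 change (SM positive over SM negative) of the 9 tested genes, with bars of 1 standard error. Filled points are fits with the replicate number as a block and open points are fits without it. Trp53 lies at -0.35 in both, while the bar of Plk2 widens from 0.0403 to 0.119 without the block.

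Among the 5 targets, Ccng1 rose, Plk2 fell and 3 did not pass the test. Ccng1 lies on chromosome 11, 40748552 to 40755311, minus strand, and Plk2 on chromosome 13, 110395046 to 110400844, plus strand. Ccng1, which encodes cyclin G1, a partner of a protein phosphatase that acts on MDM2, stood at 53.6, 56.8 and 55.1 CPM in SM negative replicates 1 to 3 and at 60, 60.7 and 63.7 CPM in SM positive replicates 1 to 3. All SM positive libraries were above all SM negative ones, a pattern that 10.4% of all genes tested showed. The log2 change was 0.16 ± 0.046 (SE), a 1.11-fold rise (adjusted p = 0.0263). It did not pass without the block (adjusted p = 0.27), with DESeq2 (0.348), or without pair 1 (0.215) or pair 3 (0.171).

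Plk2, a polo-like kinase induced by stress, was the most abundant of the 10 genes. It stood at 158, 192 and 199 CPM in SM negative replicates 1 to 3 and at 136, 168 and 182 CPM in SM positive replicates 1 to 3. Replicate 1 was the lowest in both fractions, and the fractions overlapped. Within pairs the SM positive level was 0.858, 0.876 and 0.915 of the SM negative level, so every pair fell, as in 22.7% of all genes tested. The log2 change was -0.18 ± 0.0403 (SE; adjusted p = 0.00472). Without the block the SE was 2.95 times as large and the gene did not pass (adjusted p = 0.587), and it did not pass without pair 1 (0.11).

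Bbc3 encodes PUMA, a protein that triggers mitochondrial cell death. It stood at 7.64, 9.4 and 6.44 CPM in SM negative replicates 1 to 3 and at 7.28, 7.99 and 5.62 CPM in SM positive replicates 1 to 3. The level was lower in SM positive cells in all 3 pairs, as for 22.7% of all genes tested. The difference did not pass the test (log2 change -0.16 ± 0.106 SE, adjusted p = 0.347), and the interval, 0.766-fold to 1.04-fold, is wider than for the more abundant genes. Sesn2, a sestrin that restrains mTORC1 signalling under stress, stood at 22.4 ± 1.88 CPM in SM negative and 22 ± 3.43 CPM in SM positive cells (adjusted p = 0.809). Its pairs disagreed in direction, with ratios of 0.896, 1.12 and 0.932. Phlda3, a PH-domain protein that competes with AKT for membrane lipids, stood at 17.5 ± 0.578 and 18.2 ± 0.34 CPM in the same order (log2 change 0.05 ± 0.0704 SE, adjusted p = 0.693). Bbc3 lies on chromosome 7, 16308393 to 16318205, plus strand, Sesn2 on chromosome 4, 132492032 to 132510501, minus strand, and Phlda3 on chromosome 1, 135766119 to 135769136, plus strand.

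The same replicate numbers carried much of the spread of several of these genes. Averaged over both fractions, Plk2 stood at 147, 180 and 190 CPM in replicates 1, 2 and 3, a 1.29-fold range against a 1.13-fold difference between fractions. Bbc3 ranged 1.44-fold over replicate numbers and differed 1.12-fold between fractions, and Sesn2 ranged 1.24-fold and differed 1.02-fold. Trp53 was the other way round, with a 1.08-fold range over replicate numbers and a 1.28-fold difference between fractions. Ccng1 ranged 1.05-fold and differed 1.11-fold. What a replicate number marks is not given in the labels.

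Levels of different genes can be compared only per exon length, and isoform use makes these lengths approximate. On that scale (mean CPM per kb of annotated exon), Plk2 was the highest with 40.7 ± 4.82 in SM negative and 36 ± 5.26 in SM positive cells, followed by Mdm2 (18.9 ± 0.532 and 18.4 ± 0.442) and Ccng1 (15.7 ± 0.458 and 17.5 ± 0.562). Trp53 (13.2 ± 0.919) came before Phlda3 (11.2 ± 0.371) in SM negative cells, and after it in SM positive cells (10.3 ± 0.131 against 11.6 ± 0.218). With these lengths, the Trp53 values lay above the Phlda3 values in all 3 SM negative libraries and below them in all 3 SM positive libraries. The lengths take all annotated exons of a gene together (4.04 kb for Trp53 and 1.56 kb for Phlda3). With lengths of the transcripts in use, the order of these genes could differ, so it is not settled here. Sesn2 (6.44 ± 0.54 and 6.33 ± 0.987), Mdm4 (4.66 ± 0.136 and 4.73 ± 0.171) and Bbc3 (3.69 ± 0.7 and 3.28 ± 0.571) followed, and Trp63 was far lower at 0.045 ± 0.0184 and 0.0894 ± 0.0309. Mdm2 and Ccng1 met in SM positive replicate 3, where both stood at 18.1 CPM per kb, so these neighbours were not separated beyond their spread there. Apart from Trp53 and Phlda3, the order of the means was the same in both fractions.

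**Figure D3:**
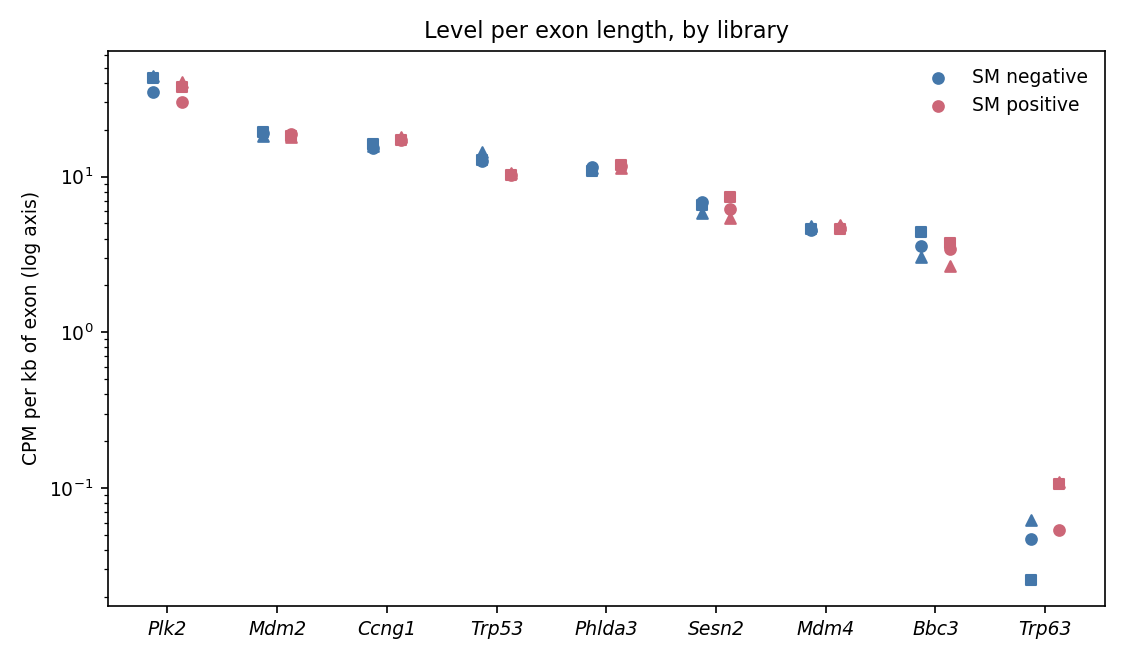
Level of the 9 genes with counts, as CPM per kb of exon on a log axis, in order of the SM negative mean. Points are libraries, colours are fractions and shapes are replicate numbers 1 (circle), 2 (square) and 3 (triangle). Trp53 sits above Phlda3 in SM negative libraries and below it in SM positive libraries, an order that depends on the exon lengths used.

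Promoter sequences are shown for 4 genes that differ in how they moved and in how closely they match the p53 site; they were chosen after their values were seen, and other genes hold pairs closer than that of Bbc3. A p53 site is commonly described as a pair of half-sites, and the search took pairs that lie up to 13 bases apart on either strand (the consensus reads the same on both). RefSeq promoter windows (GRCm38.p6, 250 bases before to 50 after a start) were found for 9 of the 10 genes, and Trp63 was not among them. Of these 9, 2 (22.2%, Trp73 and Ccng1) hold a pair with at most 2 mismatches in 20 letters. The same held for 7 of 32 other p53 targets with a window (21.9%) and for 11.5% of all genes. The difference between these shares was not tested. Ccng1, which rose, holds a pair with 1 mismatch in 20 letters, 195 to 176 bases before its RefSeq start (40755286, inside the GENCODE gene), and 1.09% of all 32851 windows hold a pair at least as good. Cdkn1a (p21, an inhibitor of cyclin-dependent kinases), which did not pass the test, holds a pair with 0 mismatches 73 to 42 bases before its first RefSeq start, as 0.0731% of windows do. Bax, which encodes a pore-forming death protein and fell, holds a pair with 1 mismatch, and 1.09% of windows hold a pair at least as good. Within these windows, the best pair of Bbc3 has 3 mismatches, as good as 45.1% of windows, and that of Plk2, which fell, has 4, as good as 89.3%. Sites outside the windows, further upstream or in introns, were not searched, and mismatches were not compared with p53 binding. A poor match here therefore does not show that a gene lacks a p53 site, inside its window or elsewhere. A match to the consensus is a description of the letters only. In the lines that follow, capitals mark the 2 half-sites and lower case the rest. The Ccng1 line gives the part of its window upstream of the GENCODE start.
Ccng1 upstream, chr11:40755312-40755536, minus strand: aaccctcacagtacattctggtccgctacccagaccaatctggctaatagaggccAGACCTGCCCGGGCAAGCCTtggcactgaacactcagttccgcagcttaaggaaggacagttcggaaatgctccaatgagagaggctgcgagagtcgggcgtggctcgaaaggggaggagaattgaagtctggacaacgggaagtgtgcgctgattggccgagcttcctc
Cdkn1a, chr17:29090906-29090937, plus strand: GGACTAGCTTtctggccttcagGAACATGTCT
Bax, chr7:45467090-45467110, minus strand: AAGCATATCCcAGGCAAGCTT
Bbc3, chr7:16309486-16309505, plus strand: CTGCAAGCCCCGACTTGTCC

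Other p53 targets moved in both directions. Of 41 targets listed by role, 37 were tested: 6 were higher (16.2%), 4 were lower (10.8%) and 27 did not pass, beside 8.52% and 5.6% of all genes. Their median log2 change was 0.05, beside -0.001 over all genes tested. Without the block 0 of the 37 passed in edgeR (7 had an unadjusted p under 0.05), and DESeq2 with the block called 1. The other 4 were below the filter, and Eda2r and Spata18 among them had 0 counts in all libraries.

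Among 8 arrest genes, Btg2 and Tob1 were higher, Gadd45a was lower and 5 did not pass. Btg2, an antiproliferative cofactor of mRNA decay, stood at 5.33, 11 and 10 CPM in SM negative replicates 1 to 3 and at 9.08, 13.1 and 15.7 CPM in SM positive replicates 1 to 3. The fractions overlapped, and each pair rose, as for 23.9% of all genes tested (log2 change 0.55 ± 0.102 SE, adjusted p = 0.00112, and 0.52 without the block). Tob1, of the same protein family, rose from 19.5 ± 1.47 to 23 ± 1.73 CPM (adjusted p = 0.0207, and 0.277 without the block). Gadd45a, a DNA damage-inducible gene, fell from 31.5 ± 1.36 to 27.3 ± 2.56 CPM (adjusted p = 0.0201, and 0.319 without the block). In blocked fits, the calls of Tob1 and Gadd45a ended without pair 1 or pair 3. Cdkn1a stood at 18.6, 20 and 18.3 CPM in SM negative replicates 1 to 3 and at 18.1, 16.2 and 16.4 CPM in SM positive replicates 1 to 3. The fractions did not overlap, a pattern that 9.47% of all genes tested showed in the same direction. The log2 change of -0.16 ± 0.0733 (SE) did not pass (adjusted p = 0.157).

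Among 9 tested death genes, Bax and Pidd1 were lower, Apaf1 was higher and 6 did not pass. Bax stood at 67.7, 62.6 and 65.4 CPM in SM negative replicates 1 to 3 and at 56.2, 57 and 56 CPM in SM positive replicates 1 to 3, with no overlap (as for 9.47% of all genes tested, in that direction). Its log2 change was -0.21 ± 0.0459 (SE; adjusted p = 0.00377, 0.136 without the block and 0.113 without pair 1). Pidd1, a scaffold that activates caspase-2, fell from 6.67 ± 1.18 to 4.85 ± 0.483 CPM (adjusted p = 0.0204, and 0.237 without the block). Apaf1, the scaffold of the apoptosome, rose from 27.5 ± 1.04 to 31.2 ± 1.06 CPM (adjusted p = 0.0334, and 0.288 without the block). In blocked fits, the call of Apaf1 ended with any 1 pair left out, and that of Pidd1 without pair 1 or pair 2. Among 20 tested genes of repair, metabolism and secretion, 3 were higher (the ribonucleotide reductase subunit gene Rrm2b, the thiamine transporter gene Slc19a2 and the epoxide hydrolase gene Ephx1). Their log2 changes were 0.18, 0.18 and 0.47 (edgeR adjusted p = 0.0409, 0.0204 and 0.0404, and 0.387, 0.434 and 0.285 without the block). The calls of Rrm2b and Slc19a2 ended with any 1 pair left out, and that of Ephx1 without pair 1 or pair 3. The DNA damage sensor gene Ddb2 was lower, at 18 ± 1.97 CPM in SM negative and 14.8 ± 0.558 CPM in SM positive cells (adjusted p = 0.0155, and 0.233 without the block). Its call also ended without pair 1 or pair 3.

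**Figure D4:**
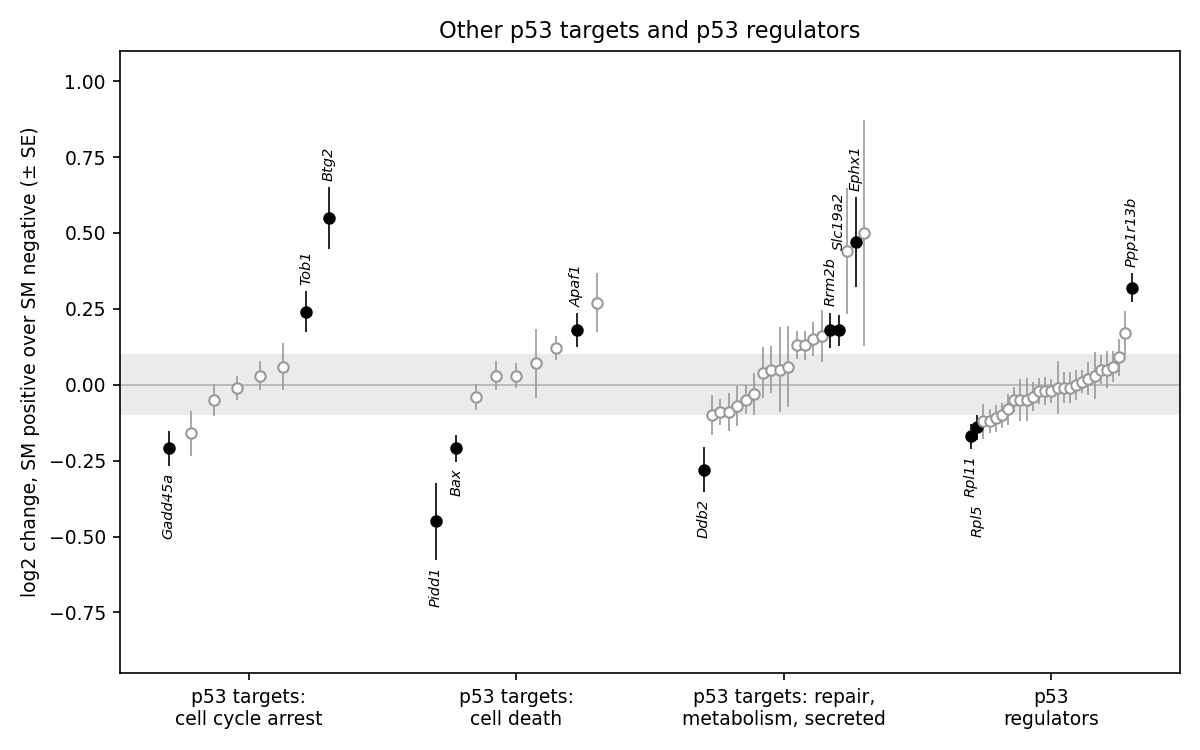
Fitted log2 change (SM positive over SM negative, bars 1 standard error) of tested p53 targets in 3 role groups and of tested p53 regulators, with the replicate block. Filled points with names passed an adjusted p of 0.05, open points did not, and the grey band spans the lower to the upper quartile of all genes tested. Btg2 at 0.55 and Pidd1 at -0.45 are the outermost genes that passed.

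Of 28 further p53 regulators (kinases, ubiquitin ligases, acetylases and cofactors), 27 were tested, 1 was higher (3.7%), 2 were lower (7.41%) and 24 did not pass, beside 8.52% higher and 5.6% lower over all genes tested, so neither share stands apart. Their median log2 change was -0.02. Ppp1r13b, which encodes ASPP1, a cofactor that steers p53 towards cell death genes, stood at 47.8, 45.5 and 48 CPM in SM negative replicates 1 to 3 and at 62.7, 55.3 and 58.7 CPM in SM positive replicates 1 to 3. All SM positive libraries were above all SM negative ones, as for 10.4% of all genes tested (log2 change 0.32 ± 0.0477 SE, adjusted p = 9.15e-05, and 0.0451 without the block). Without the block, its call ended with any 1 library left out (adjusted p from 0.0567 to 0.166). The ribosomal protein genes Rpl11 and Rpl5, whose products can bind MDM2, were lower by 0.17 and 0.14 on the log2 scale (log2 changes -0.17 and -0.14, adjusted p = 0.0109 and 0.0312, 0.239 and 0.279 without the block). With the block, the calls of Rpl11 and Rpl5 ended without pair 1 or pair 3, whereas that of Ppp1r13b held with each pair left out. Cdkn2a, whose ARF product inhibits MDM2, had 0 counts in all 6 libraries. The damage kinase genes Atm and Atr and the deubiquitinase gene Usp7 did not pass (log2 changes -0.05, -0.02 and 0.01).

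Cell cycle genes that p53 is known to lower through p21 and the DREAM repressor complex moved in both directions. Of 20 such genes, 7 were higher (35%: Prc1, Top2a, Plk1, Ccnb1, Ccna2, Aurkb and Cdk1), 3 were lower (15%: Mki67, Mcm5 and Ccnb2) and 10 did not pass, beside 8.52% higher and 5.6% lower over all genes tested. The median log2 change of the 20 was -0.06, and 0 passed without the block in edgeR (6 had an unadjusted p under 0.05). The genes with the pattern most like Trp53 over the 6 libraries, by Pearson correlation of log2 CPM among 9775 genes with a mean of at least 5 CPM, were Ddx41 (r = 0.989), Zdhhc6 (0.989) and Col7a1 (0.981). With so many genes and 6 libraries of 2 fractions, such values are a description only. Of these, Col7a1, a collagen of epithelial anchoring fibrils, fell (log2 change -0.27, adjusted p = 0.00257, and 0.0928 without the block), and the other two did not pass.

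Libraries held 18733801 to 26533528 counts. The 9 epithelial genes, the defining markers of the labelled carcinoma cells, were all detected and summed to 4250 to 4570 CPM in SM positive and 4530 to 4750 CPM in SM negative libraries, with Krt7 the highest, and Epcam, Krt19 and Cldn4 were lower in SM positive cells. Of 7 basal epithelial genes, Krt5 and Dsc3 had 0 counts, and the sum, mostly Itgb4, was 110 to 119 and 102 to 119 CPM in the same order. Fibroblast genes summed to 5.84 to 8.1 CPM in SM positive and 4.36 to 4.97 CPM in SM negative libraries, and Pdgfra rose while Col3a1 and Lum were at 0. Leukocyte genes summed to 4.9 to 6.43 and 6.57 to 8.81 CPM, of which Cd68 was the highest and fell, and Adgre1 and Cd3e were at 0. None of these 5 marker calls passed without the block (adjusted p from 0.16 to 0.326). The 5 endothelial genes summed to under 1 CPM. In sorted bulk RNA a lower level in every cell and fewer cells with a high level cannot be told apart, for Trp53 as for the other genes, and the part of these markers in the results was not tested.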

How the data were processed

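The authors deposited expected counts for each gene, of which 13.5% to 14.4% per library were not whole numbers. FastQC 0.11.5, STAR 2.6.0a and RSEM 1.3.1, and the build GRCm38, are named per the submitters' processing notes. Annotation release and strand setting: not given in the sources used here. Positions and exon lengths came from GENCODE M21 (GRCm38), which matched 99.8% of identifiers; 1 listed regulator was not matched.

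Counts were rounded, filtered with filterByExpr, scaled by TMM and tested with edgeR 4.0.16 (R 4.3.3; quasi-likelihood F test, robust), with Benjamini-Hochberg adjustment over all 14038 genes and a threshold of 0.05. SE is the log2 change divided by the root of F. The procedure was tested on simulated counts with replicate effects built in and fitted with the same block. That test cannot show whether the block suits these data. Alternatives used limma 3.58.1 and DESeq2 1.42.0.

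The fit has the replicate number as a block because the comparison was defined as paired by that number. Deviations from the fraction means correlated at 0.22, 0.28 and 0.196 for the 3 same-number pairs, all above the minimum of 0.1, and at -0.175 to -0.0435 for other pairs. Deviations cancel out within each fraction, so positive same-number values largely force negative values elsewhere. The other pairs are therefore no separate support for the pairing. The labels do not say what a number marks or that replicates were separate cultures. The p-values therefore reflect only how these libraries vary, and that variation may be technical.

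The members, lists and paired comparison were chosen with earlier results of these data known. Named were all 10 members, Cdkn1a and Cdkn2a, up to 3 genes higher and 3 lower per list by p with a mean of at least 1 CPM, the 3 genes most like Trp53, and the top gene of each marker list. Other genes were named after their values were seen.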

Additional observations from a re-analysis of the deposited data

How the results depend on the processing

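With the replicate block, 1982 genes passed over the whole table; with no replicate block, 190 did, and the calls were 0 members higher and 1 lower, 0 targets higher and 0 lower, and 1 regulator higher and 0 lower. With 1 library left out and no replicate block, 25 to 123 genes passed (43, 25 and 39 without SM negative replicates 1, 2 and 3, and 123, 117 and 48 without SM positive replicates 1, 2 and 3), and 0 members, 0 targets and 0 regulators did. With the block and 1 pair left out, 705, 1793 and 886 genes passed without replicates 1, 2 and 3. The members higher then ranged from 0 to 1 and lower from 1 to 2, the targets higher from 1 to 5 and lower from 0 to 3, and the regulators higher from 1 to 2 and lower from 0 to 3. DESeq2 with the block called 616 genes, 0 members higher and 2 lower, and 1 target higher and 0 lower. With no filter, 2 regulators were higher and 9 targets were higher. With library totals only, RLE size factors or only genes above 1 CPM in at least 3 libraries, 3 regulators were lower. Without robust fitting 4 targets were higher, and 1549 genes passed. Mdm4 and Sesn2, which did not pass in any fit, changed sign: Mdm4 to -0.01 (no replicate block, without SM positive replicate 3), and Sesn2 to 0.04 (without replicate 1; the range with 1 pair left out was -0.13 to 0.04), 0.03 (no replicate block, without SM negative replicate 1) and 0.07 (no replicate block, without SM positive replicate 3). Of the alternative values of named genes, 279 kept their direction and side of the threshold, 157 kept their direction and no longer passed, and 4 changed sign. The cause was not tested. The 279 include genes that had not passed to begin with, such as Mdm2, which again did not pass in any of 17 alternatives. Of 17 alternatives each, Trp53 kept its call in 11, Plk2 in 9 and Ccng1 in 7. With 3 libraries a fraction and 18733801 counts or more per library, depth limits what can be said of Trp63 and Trp73.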
